A study of Homo sapiens with 9 samples.

Results

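The genes described here are RXRA and 9 other nuclear receptor genes (RXRB, RARA, RARG, VDR, THRA, PPARD, RORA, NR3C1 and NR4A1), 10 of the 58096 gene IDs listed for each library. Total RNA was sequenced from ALL-SIL, an established line of T-cell acute lymphoblastic leukaemia, 24 h after electroporation with siRNA. Each of 3 groups had 3 libraries: a scrambled control siRNA, given at 400 nM in the labels, and the siRNAs s46 and s47, which target TLX1 and for which the labels give no dose. The product of TLX1, a homeodomain protein, is expressed ectopically in some leukaemias of this kind. No label says whether replicates were separate cultures, so a p-value here reflects only how much these libraries vary, and that variation may be technical. The 10 genes were chosen by name with their values in these same siRNA comparisons known, among them the lower RXRA level with both TLX1 siRNAs. Fold changes of the 10 genes are therefore given as a description, and the counts of calls among them support nothing.

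Nuclear receptors are transcription factors whose activity is switched by small lipid-soluble ligands. RXRA and RXRB encode retinoid X receptors, which pair with retinoic acid, vitamin D, thyroid hormone, PPAR and LXR receptors and bind DNA as heterodimers at paired half-sites. Without ligand many of these pairs hold corepressors on their target genes, and ligand exchanges them for coactivators. The glucocorticoid receptor NR3C1 binds DNA as a homodimer and mediates the killing of lymphoid leukaemia cells by glucocorticoids. RORA binds DNA as a monomer, and NR4A1 is an early gene of T-cell receptor signalling.

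Sense gene reads ranged from 21134650 in scrambled replicate 1 to 33393740 in s46 replicate 3. Multimapping reads made up 14.4% of scrambled replicate 1 and 6.36% to 7.34% of every other library. Its difference from the other scrambled libraries went with the GC content of the transcripts over 15962 genes (Pearson r = 0.297, a correlation across genes from shared libraries, which are not independent replicates). TLX1 was 185.9 ± 13.5 CPM (read counts scaled to TMM-adjusted library size; SD, n = 3) with scrambled siRNA, 76.6 ± 11.9 with s46 and 70.8 ± 6.28 with s47 (edgeR adjusted p 0.000394 for both siRNAs). All 14 T-cell markers passed the filter on low counts and summed to 1535 to 1704 CPM with scrambled siRNA and 1631 to 1784 CPM with the TLX1 siRNAs. Myeloid markers summed to at most 0.627 CPM in any library, with CD33 and FCN1 at 0, and erythroid and megakaryocyte markers to at most 0.359 CPM, with HBA1 and PF4 at 0. B-cell markers summed to 10.4 to 14.8 CPM, with CD22 at 0 in all libraries. Of the stromal and epithelial markers, COL1A1, COL1A2, EPCAM, KRT18 and VWF had at most 3 reads each in any library. PECAM1 had 2029 to 3540. The list summed to 88.0 to 97.7 CPM with scrambled siRNA and 102.8 to 126.0 CPM with the TLX1 siRNAs, nearly all of it PECAM1. The part of PECAM1 in the results was not tested.

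RXRA, the retinoid X receptor alpha gene, was lower in every library with a TLX1 siRNA. Its level was 24.2, 25.5 and 29.2 CPM in scrambled replicates 1, 2 and 3. It was 8.47, 12.4 and 9.98 CPM in the s46 libraries and 7.45, 8.40 and 11.9 CPM in the s47 libraries. All 6 of these libraries were below all 3 scrambled libraries, a pattern that 3.65% of the 16072 tested genes showed. The log2 fold change was -1.43 ± 0.16 (SE) for the mean of both siRNAs, a 2.69-fold lower level, with -1.35 ± 0.20 for s46 and -1.50 ± 0.20 for s47. The difference between the siRNAs was 0.15 ± 0.20 on the log2 scale. No gene passed the threshold between s46 and s47 (edgeR, 113 genes with an unadjusted p under 0.05; 0 genes by DESeq2 and 0 by limma-voom). In bulk RNA, fewer cells expressing a gene and less of its RNA per cell cannot be told apart.

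**Figure D1:**
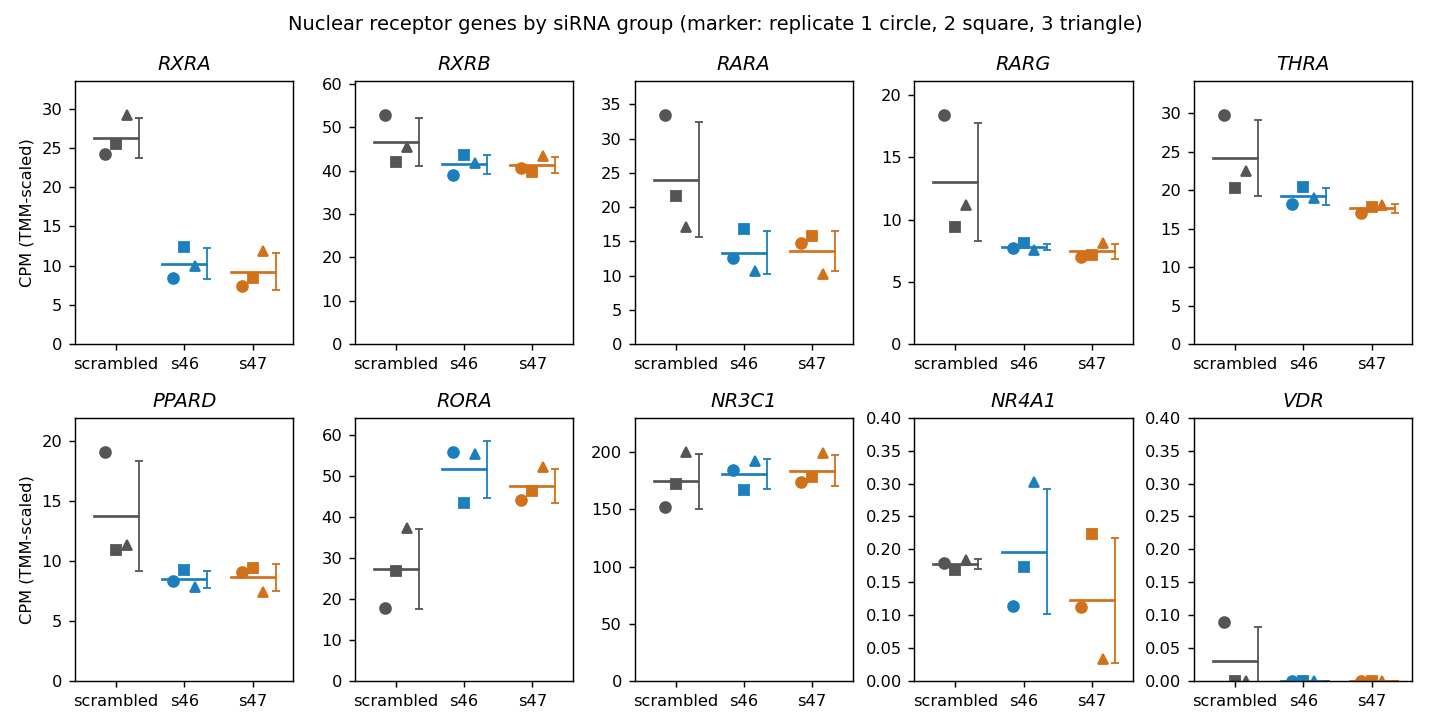
TMM-scaled CPM of the 10 nuclear receptor genes in each library, by siRNA group, with bars for the mean and whiskers for the SD (n = 3); each panel has its own linear axis from 0. RXRA lies between 24.2 and 29.2 CPM with scrambled siRNA and between 7.45 and 12.4 CPM with the TLX1 siRNAs, while NR4A1 and VDR reach at most 0.302 CPM.

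RXRA was the only one of the 8 testable members past an adjusted p of 0.05 for the mean of both siRNAs, where 0.156% of genes were lower and 0.411% higher (0.566% in either direction). With s46 alone 0.0249% of genes were called lower, and with s47 alone 0.0871% were; RXRA was among both. VDR and NR4A1 did not pass the filter on low counts. Without scrambled replicate 1 the log2 fold change of RXRA was -1.48, and it was still the only member called. The RXRA transcript is GC-rich at 60.6%, and scrambled replicate 1 lay at -0.17 against the mean of the other scrambled libraries for it on the log2 scale. For the single siRNAs the call was lost without scrambled replicate 3 (edgeR adjusted p 0.102 for s46 and 0.076 for s47), and also without each s46 replicate in turn and without s47 replicate 1 or 2. With DESeq2, 5 members passed the threshold (RXRA, RARA, RARG and PPARD lower, RORA higher), where it called 1.58% of the 12954 genes to which it gave an adjusted p lower and 1.95% higher. These values come from the comparison that chose the genes.

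RXRA (ENSG00000186350.9) lies on chromosome 9, 134317098 to 134440585 on the plus strand of GRCh38. RefSeq promoter windows of GRCh38.p14, from 250 bases before to 50 bases after an annotated start, were matched for 9 of the 10 genes, 20 windows in all; VDR was the gene without one. The windows printed here are both RXRA starts and the one other window of these genes with a receptor half-site, AGGTCA or GGGTCA on either strand, which is in capitals. The first RXRA window, at chr9:134326205-134326504 on the plus strand, has no capitals because it holds no half-site.
RXRA start 1: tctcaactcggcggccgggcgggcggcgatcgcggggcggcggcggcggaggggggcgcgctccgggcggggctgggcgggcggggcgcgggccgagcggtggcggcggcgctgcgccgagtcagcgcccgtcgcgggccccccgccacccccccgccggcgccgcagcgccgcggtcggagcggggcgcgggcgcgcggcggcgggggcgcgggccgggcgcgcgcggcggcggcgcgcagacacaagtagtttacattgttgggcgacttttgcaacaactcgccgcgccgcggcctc
The second, at chr9:134379045-134379344 on the plus strand, holds 1 half-site.
RXRA start 2: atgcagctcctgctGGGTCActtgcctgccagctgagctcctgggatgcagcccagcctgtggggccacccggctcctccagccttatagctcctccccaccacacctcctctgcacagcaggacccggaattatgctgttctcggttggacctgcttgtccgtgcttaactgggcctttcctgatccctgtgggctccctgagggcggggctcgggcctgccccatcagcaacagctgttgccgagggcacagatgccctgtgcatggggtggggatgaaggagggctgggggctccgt
The RARA window at chr17:40308930-40309229 on the plus strand holds 2.
RARA start 1: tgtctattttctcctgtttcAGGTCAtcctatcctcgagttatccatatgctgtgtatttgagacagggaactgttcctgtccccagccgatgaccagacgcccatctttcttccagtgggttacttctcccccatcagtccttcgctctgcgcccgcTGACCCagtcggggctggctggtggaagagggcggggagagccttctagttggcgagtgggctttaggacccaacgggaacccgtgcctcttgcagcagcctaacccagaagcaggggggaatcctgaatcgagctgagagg

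Half-sites were thus present in 2 of the 20 windows of these genes, against 25.6% of all 35116 RefSeq windows of this length. The first RXRA window is 84% G or C, against a median of 58.7% over all windows, and holds 6 copies of the GC box GGGCGG, counted on both strands. A GC box was present in 15 of the 20 windows and in 45.0% of all. The 20 windows are not separate genes: 7 are starts of NR3C1, and windows of a gene can overlap, as those of RXRB do. The homeodomain core TAATTA or TAATTG, on either strand, was absent from both RXRA windows; it was present in 2 of the 20 windows, those of RORA and of 1 NR3C1 start, and in 11.4% of all. A match is a run of letters, not a bound site, and its absence says only that these letters are not in the window.

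RXRB, the other retinoid X receptor gene with reads above the filter, did not separate the groups. It was 52.7, 41.9 and 45.3 CPM with scrambled siRNA, 39.1, 43.6 and 41.7 CPM with s46 and 40.6, 39.8 and 43.4 CPM with s47. The groups overlapped, and the log2 fold change was -0.17 ± 0.11 (SE) for both siRNAs and -0.08 without scrambled replicate 1. RXRG, the remaining family member, had 1 read in the 9 libraries together.

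Per length, RXRB was the main retinoid X receptor in all groups. In TPM, which divides reads by exon-union length and scales each library to the same total, RXRA made up 14.0%, 17.7% and 18.5% of the summed RXR level in scrambled replicates 1, 2 and 3. The share was 7.12%, 9.13% and 7.80% in the s46 libraries and 6.09%, 6.95% and 8.84% in the s47 libraries. The scrambled libraries stood above all 6 others, s46 and s47 overlapped, and the group means were 16.7% ± 2.43, 8.02% ± 1.02 and 7.29% ± 1.41 (SD, n = 3 each). The summed RXR level was 58.9 ± 7.63 TPM with scrambled siRNA, 45.9 ± 3.11 TPM with s46 and 43.8 ± 1.96 TPM with s47. Scrambled replicate 1 was the highest at 66.6 TPM, and scrambled replicate 2 at 51.3 TPM stood near s46 replicate 2 at 49.2 TPM. Between scrambled and both siRNAs RXRB, whose groups overlapped, went from 49.1 to 41.4 TPM and RXRA from 9.75 to 3.46 TPM. With the length of the longest transcript in place of the exon union the RXRA share was 22.2%, 11.04% and 10.1%, so its size depends on the length used. A gene has the same length in every library, so this change could not test the order over groups.

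**Figure D2:**
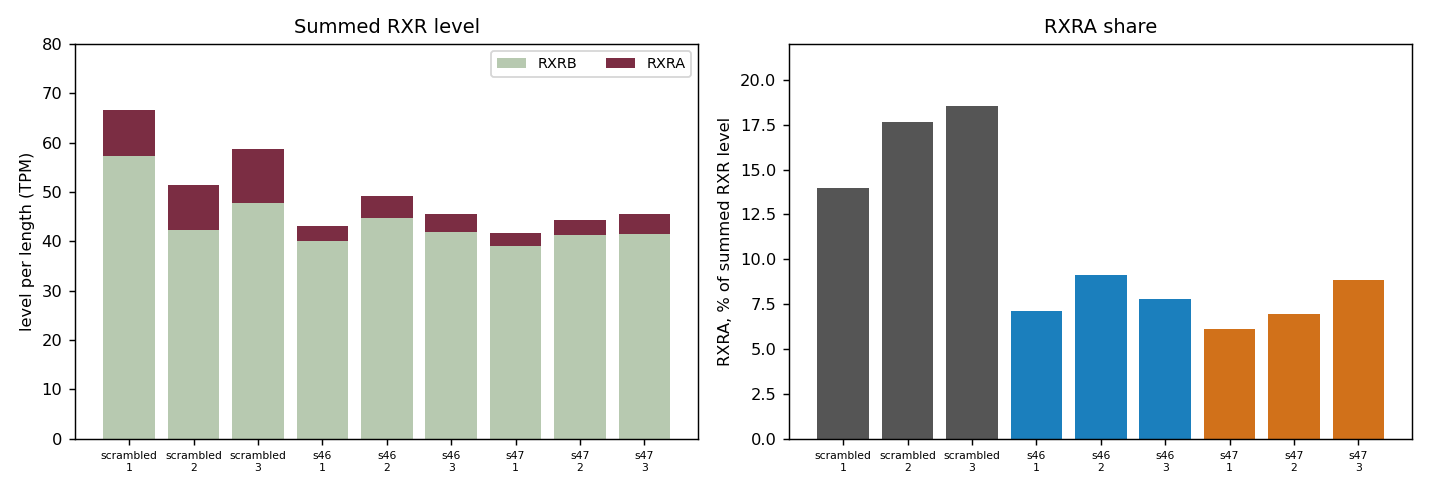
Summed RXR level per length (left, TPM, stacked RXRB and RXRA) and RXRA as a percent of it (right) in each of the 9 libraries. The RXRA share is 14.0% to 18.5% in the scrambled libraries and 6.09% to 9.13% in the TLX1 siRNA libraries.

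The retinoic acid receptors, which pair with the RXRs to carry the response to all-trans retinoic acid, had lower values with both siRNAs, by amounts that shrank without scrambled replicate 1. RARA was 33.4, 21.6 and 17.0 CPM with scrambled siRNA, 12.6, 16.8 and 10.7 CPM with s46 and 14.7, 15.7 and 10.3 CPM with s47. RARG was 18.4, 9.44 and 11.2 CPM with scrambled siRNA, 7.74, 8.10 and 7.57 CPM with s46 and 7.04, 7.16 and 8.15 CPM with s47. For both genes the groups did not overlap, as for 3.65% of tested genes in this direction. The gap was narrow: the lowest scrambled RARA value, 17.0 CPM, stood beside 16.8 CPM in s46 replicate 2. The log2 fold change was -0.83 ± 0.21 for RARA and -0.77 ± 0.19 for RARG, and -0.52 and -0.43 without scrambled replicate 1. That library exceeded the mean of the other scrambled libraries by 0.78 (RARA) and 0.81 (RARG) on the log2 scale, at the 91.2 and 91.8 percentiles of all tested genes. Both transcripts are GC-rich, at 63.0% and 60.0%, against a median of 47.4%; the part of base composition in these differences was not tested.

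Among the other RXR partners, THRA, the thyroid hormone receptor alpha gene, was 29.7, 20.3 and 22.5 CPM with scrambled siRNA, 18.2, 20.4 and 19.0 CPM with s46 and 17.0, 17.8 and 18.1 CPM with s47. The groups met at scrambled replicate 2 and s46 replicate 2, and the log2 fold change was -0.39 ± 0.13, or -0.22 without scrambled replicate 1. PPARD, a fatty acid sensor, was 19.1, 10.9 and 11.3 CPM with scrambled siRNA, 8.35, 9.25 and 7.81 CPM with s46 and 9.06, 9.45 and 7.39 CPM with s47. Its groups did not overlap, as for 3.65% of tested genes in this direction. The log2 fold change of PPARD was -0.68 ± 0.18, or -0.38 without scrambled replicate 1. That library was above the mean of the other scrambled libraries by 0.47 (THRA) and 0.75 (PPARD) on the log2 scale, and the transcripts hold 60% and 59.0% G or C. VDR, the vitamin D receptor gene, had 2 reads in scrambled replicate 1 and 0 in the other 8 libraries; 3 reads, taken as the limit that a count of 0 allows, correspond to 0.0905 to 0.134 CPM. THRA and NR1D1 overlap on opposite strands, and the libraries are stranded.

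RORA was the member that stood higher with both siRNAs. It was 17.7, 26.9 and 37.4 CPM with scrambled siRNA, 55.9, 43.6 and 55.5 CPM with s46 and 44.1, 46.4 and 52.2 CPM with s47. All 6 TLX1 siRNA libraries were above all 3 scrambled ones, as for 4.47% of tested genes. The log2 fold change was 0.86 ± 0.19, and 0.63 without scrambled replicate 1, the lowest library. RORA has the lowest transcript GC content of the 8 testable members, 35.8%, and scrambled replicate 1 lay at -0.82 against the mean of the other scrambled libraries on the log2 scale, at the 2.92 percentile of all genes. Reads on the strand opposite to RORA made up 30.8%, 9.23% and 19.2% of its reads in scrambled replicates 1, 2 and 3 and 7.52% to 11.9% with the TLX1 siRNAs, so the groups overlapped. They numbered 81 to 242 per scrambled library and 102 to 224 per TLX1 siRNA library.

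RORA and RARA were the only members with the word GCAGTAC in an annotated 3′ UTR, which 5.72% of 11042 tested genes with a 3′ UTR hold. The longest 3′ UTR of RORA has 9171 bases and that of RARA 1417, against a median of 1329 over those tested genes. That share does not allow for length, and a longer 3′ UTR has more places for a word. The word was chosen from earlier results of these libraries, and 31 of the 63 genes called higher by edgeR that have a 3′ UTR hold it, given here as a description. The sites are printed with the word in capitals, since they lie in genes that stood on opposite sides of the control.
RORA 3′ UTR site: ttgccacattaGCAGTACcacacttcttt
RARA 3′ UTR site: tgccctcccggGCAGTACtggggaccttc
Carrying the word therefore went with a higher RORA and a lower RARA, and its part in either value was not tested. The annotated coding-transcript 3′ UTRs of RXRA, 405 bases at the longest, do not hold it. The longest annotated RXRA transcript has 5770 bases, and sequence outside those 3′ UTRs was not searched.

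NR3C1 was the most abundant receptor per length and had overlapping groups. It was 152.2, 171.9 and 200.2 CPM with scrambled siRNA, 184.2, 167.0 and 192.7 CPM with s46 and 173.9, 178.0 and 199.3 CPM with s47. The log2 fold change was 0.06 ± 0.11, or -0.03 without scrambled replicate 1. NR4A1 had 1 to 10 reads in every library, 43 in all, too few to compare groups.

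**Figure D3:**
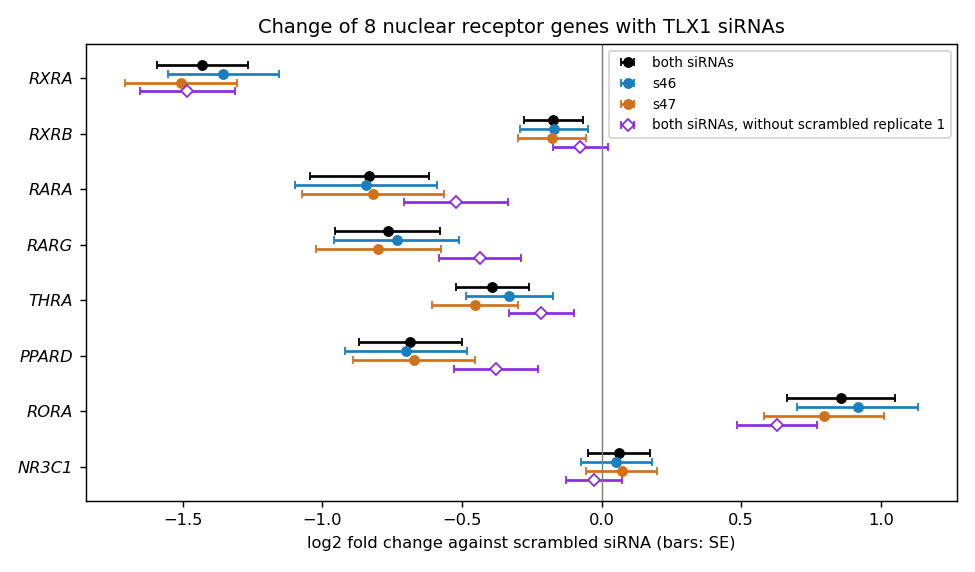
Log2 fold changes against scrambled siRNA with SE for the 8 members that passed the filter on low counts, for both siRNAs, each siRNA, and both siRNAs without scrambled replicate 1. RXRA lies at -1.43 with and -1.48 without that library, while RARA moves from -0.83 to -0.52 and PPARD from -0.68 to -0.38.

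Ordered by TPM in the scrambled libraries, NR3C1 (78.3 ± 10.4, SD, n = 3) and RXRB (49.1 ± 7.60) stood above the rest without overlap. RARA (21 ± 8.0), THRA (14.4 ± 3.43), PPARD (12.8 ± 4.72), RARG (10.5 ± 4.20) and RXRA (9.75 ± 0.979) followed, and each overlapped the next. RORA (6.58 ± 2.34) came below RXRA by a narrow margin, and NR4A1 (0.10) and VDR (0.022) were last. With the longest transcript as length RXRA ranked 5 of 10 and overlapped RARG, the next below it. Over the 6 TLX1 siRNA libraries RXRA was the lowest of the 8 measurable members at 3.46 ± 0.715 TPM (SD, n = 6), and RORA ranked 3 at 11.4 ± 1.35 TPM, overlapping RARA at 11.2 ± 2.45 TPM.

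Across the 9 libraries, genes whose log2 CPM followed RXRA most closely among 11904 genes included the cystine transporter gene SLC7A11 (Pearson r = 0.978), TLX1 (0.970), the aminopeptidase gene NPEPPS (0.958) and the chemokine receptor gene CCR4 (0.946). The most opposed included TSHR (-0.971), PAFAH2 (-0.965), AUNIP (-0.963) and PTBP3 (-0.958). These are descriptions over libraries that share the group difference, and the order depends on the measure: none of the 5 highest by Pearson's r was among the 5 highest by Spearman's rho, and SLC7A11 ranked 88 once group means were removed. With group means removed, r with RXRA was 0.833 for SLC7A11, 0.605 for TLX1, 0.848 for NPEPPS and 0.493 for CCR4, and for the 4 opposed genes named it ran from -0.803 (AUNIP) to -0.596 (PAFAH2). Among the members, r with RXRA was 0.78 for RARG, 0.76 for THRA, 0.70 for RXRB, 0.68 for PPARD, 0.66 for RARA, -0.15 for NR3C1 and -0.75 for RORA. With group means removed these lay between -0.35 (PPARD) and 0.38 (NR3C1).

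No tested neighbour of RXRA on chromosome 9 passed the threshold by edgeR, among the 5 nearest on each side. Only BRD3, a bromodomain gene 248.6 kb before RXRA, had an unadjusted p under 0.05, with a log2 fold change of -0.42 ± 0.17 that was -0.08 without scrambled replicate 1. WDR5, a subunit of histone methyltransferase complexes 157.1 kb before RXRA, was at 0.03 ± 0.09. The nearest tested gene after RXRA, the mitochondrial ribosomal protein gene MRPS2, lay 1059 kb away and was at 0.07 ± 0.13. The other 7 were BX649632.1, RNU6ATAC, BX649601.1, CAMSAP1, AL355574.1, UBAC1 and AL138781.1, with log2 fold changes of -0.98 to 0.05.

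None of the tested enzymes, targets and cofactors of these receptors was called by edgeR. In 13 lists, 148 distinct genes other than the members were tested of 223 listed, and 0 were called for both siRNAs by edgeR (18 higher and 20 lower at an unadjusted p under 0.05, where 7.27% of all tested genes were higher and 10.5% lower). DESeq2 called 5, all higher (CRY1, FKBP4, HBEGF, KDM1A and RDH10), and limma-voom 0. Over the 12954 genes to which DESeq2 gave an adjusted p, it called 1.95% higher and 1.58% lower. The median log2 fold change of the 148 genes was -0.05, against -0.03 for all tested genes.

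The genes of retinoid metabolism and response passed the filter on low counts only in part. Of 22 retinoid enzymes and binding proteins 11 were tested, with a median log2 fold change of 0.08; RDH10, a retinol dehydrogenase and the most abundant per length, was at 0.82 ± 0.24 (edgeR adjusted p 0.168). Of 18 retinoic acid response genes 9 were tested, with a median of -0.01, and the integrin gene ITGA4, the most abundant, was at 0.44 ± 0.16 (edgeR adjusted p 0.215). Among the response genes not tested, RARB, a standard direct retinoic acid target, had 0 reads in every library. CYP26A1, which degrades retinoic acid, had at most 3. Among those tested, STRA6 had 1064 to 1676 reads and NRIP1 4170 to 8552.

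Of 14 LXR targets 8 were tested, with a median log2 fold change of -0.21 that was -0.01 without scrambled replicate 1; SCD, the stearoyl-CoA desaturase gene and the most abundant, was at -0.14 ± 0.11. The LXR genes themselves, named after their values were seen, were at 28.6 ± 1.11 TPM (NR1H2) and 4.34 ± 0.351 TPM (NR1H3) with scrambled siRNA. Of 18 PPAR targets 12 were tested, with a median of -0.09, and of 11 thyroid hormone response genes 4, with a median of -0.20 that was -0.07 without scrambled replicate 1. TXNIP, an inhibitor of thioredoxin, was the most abundant in both lists, at -0.15 ± 0.15. Of 12 vitamin D response genes 4 were tested, and HBEGF, an EGF-family growth factor gene, was the most abundant at 0.74 ± 0.20 (edgeR adjusted p 0.135); CYP24A1, the standard vitamin D target, had 0 reads. In the list of 38 other nuclear receptors 15 were tested, 8 of them below 0, where 53.5% of all tested genes were. NR2C2, an orphan receptor, was the most abundant at -0.19 ± 0.11.

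Of 28 glucocorticoid response genes 23 were tested, with a median log2 fold change of -0.08. Of these, 14 were below 0, as were 53.5% of all tested genes. CXCR4, the most abundant, was at 0.31 ± 0.12. All 12 receptor chaperones were tested, with a median of 0.25 and 10 above 0, where 53.5% of all tested genes were below 0. Of the 12, 4 were higher at an unadjusted p under 0.05, against 7.27% of all tested genes. HSP90AB1, the most abundant chaperone, was at 0.30 ± 0.13 (edgeR adjusted p 0.269). FKBP4, a cochaperone of the receptor named here because it had the lowest adjusted p of all the lists (0.0753 by edgeR), was at 0.47 ± 0.11, and the list's median was 0.12 without scrambled replicate 1.

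Of 13 NR4A and early activation genes 9 were tested, with a median log2 fold change of -0.22, and IER2, an early response gene, was at -0.28 ± 0.10. Of 14 ROR and clock genes 12 were tested, with a median of -0.07, and CRY1, a repressor of the clock and the most abundant, was at 0.44 ± 0.12 (edgeR adjusted p 0.124). All 18 corepressor genes were tested, with a median of -0.01 and HDAC1, a histone deacetylase, at 0.10 ± 0.11. Of 24 coactivator genes 23 were tested, with a median of -0.21 that was -0.04 without scrambled replicate 1, and NCOA4 was at -0.03 ± 0.14. The acetyltransferase genes EP300 and CREBBP, named after their values were seen, were at -0.80 ± 0.28 and -0.78 ± 0.30. Without scrambled replicate 1 they were at -0.23 and -0.13.

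**Figure D4:**
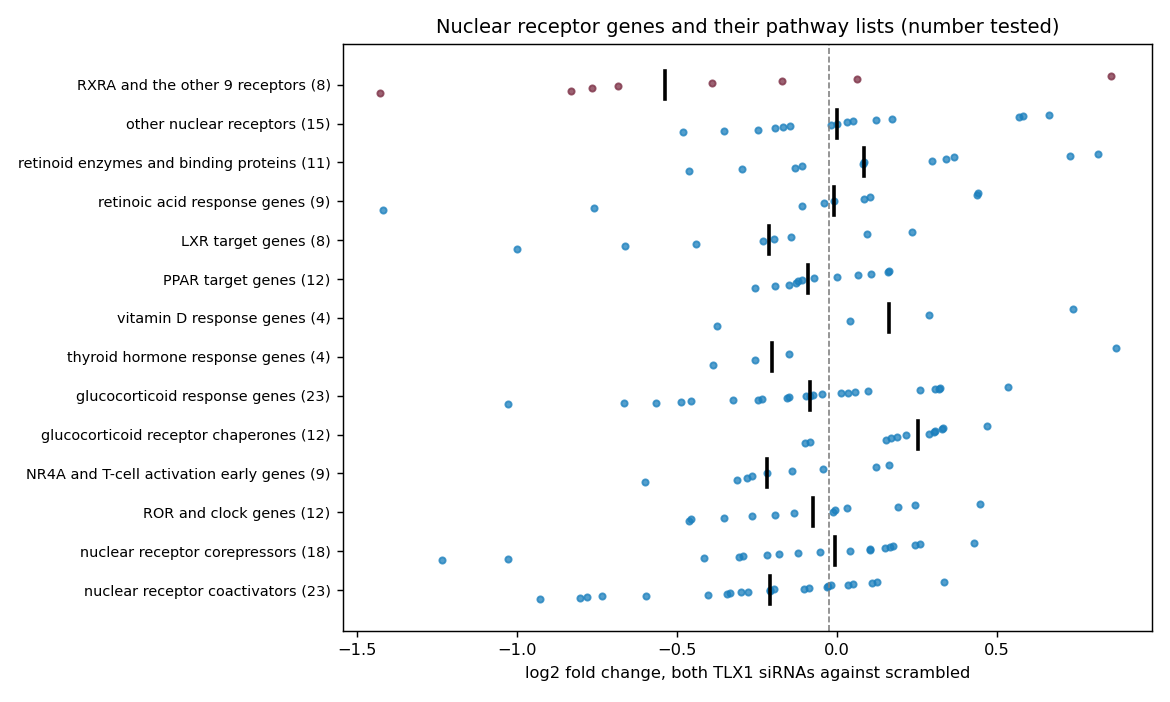
Log2 fold changes for both TLX1 siRNAs against scrambled siRNA, 1 point per tested gene, for the members and 13 lists of related genes, with black bars for each list's median and a dashed line for the median of all tested genes (-0.03). The medians of the 13 lists run from -0.22 for the NR4A and early activation genes to 0.25 for the glucocorticoid receptor chaperones. The bar of the members, which were chosen with their values known, is at -0.54, and RXRA, at -1.43, is the leftmost point.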

How the data were processed

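For each of 9 libraries the authors deposited raw counts of reads by gene and strand. The build is GRCh38, per the submitters' processing notes. Which aligner, counter and annotation made them is not given in the sources used here. Libraries were ribosome-depleted and stranded per the labels' protocols, and the sense counts were used. Rows that name no gene were left out (unmapped 4.52% to 6.70% of reads, multimapping 6.36% to 14.4%, no feature 23.8% to 36.8%, ambiguous 2.12% to 4.44%). Of 58096 IDs, 57492 matched GENCODE 29 and 604 did not.

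Genes were filtered with filterByExpr (minimum count 10; 16072 kept), scaled by TMM and fitted by robust quasi-likelihood with edgeR 4.0.16 in R 4.3.3, as 1 fit of all libraries by group, with Benjamini-Hochberg adjustment over all genes and a threshold of 0.05. SEs come from the F statistics. TPM used exon-union lengths. Likeness used log2 CPM with a pseudocount of 0.5 CPM and genes of mean log2 CPM of at least 1. Alternatives were DESeq2 1.42.0, limma-voom (limma 3.58.1), other scalings and filters, unstranded counts, the replicate number as a block, and each library left out.

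The members and the lists were chosen with earlier results of these data known. Named genes are the members, TLX1, the most abundant gene per length of each list where none was called, the 5 nearest tested genes on each side of RXRA, and the 5 most and 5 least correlated genes; 2 of these last are not reported here.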

Additional observations from a re-analysis of the deposited data

How the results depend on the processing

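RXRA stayed past the threshold for both siRNAs in all 17 alternatives, with log2 fold changes of -1.53 to -1.34. For s46 alone it ranged from -1.50 to -1.23 with 1 library left out, and its call was lost without scrambled replicate 3 and without each s46 replicate in turn (edgeR adjusted p 0.0642 to 0.148); for s47 alone it ranged from -1.72 to -1.37, with the call lost without scrambled replicate 3, s47 replicate 1 or s47 replicate 2 (edgeR adjusted p 0.068 to 0.0783). The s46 against s47 difference ranged from -0.0037 to 0.37 with 1 library left out. NR3C1 turned to -0.0045 with library totals, and ranged from -0.026 to 0.18 with 1 library left out.

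Members called for both siRNAs numbered 5 with no filter and 5 with DESeq2, 3 with the replicate block (RXRA, RARA at edgeR adjusted p 0.0364 and RORA at 0.0367), and 1 to 6 with 1 library left out; scrambled replicate 2 gave the 6 and scrambled replicate 3 gave 2. All genes called numbered 876 with no filter, 457 with DESeq2, 222 with the replicate block, and 22 (without scrambled replicate 3) to 1650 (without scrambled replicate 2). Pathway genes called numbered 8 of 188 tested with no filter, 5 of 148 with DESeq2 and 4 of 148 with the replicate block. They numbered 0 to 26 with 1 library left out (26 of 149 without scrambled replicate 2). DESeq2 called 1.95% of all genes higher and 1.58% lower. Shares over all genes were not computed for the other settings named here, so these counts of members and pathway genes are descriptions only. The RXRA share with the longest transcript was 22.2%, 11.04% and 10.1%. Same-numbered samples deviated together at r of -0.0528 to 0.524 (median 0.385, 9 pairs) and others at -0.37 to 0.169 (median -0.184, 18 pairs). Deviations from a group mean sum to 0 within the group. The mostly negative values of the others thus follow from the same-numbered ones and are no separate comparison. The same-numbered values alone hint at pairing, but 1 pair (scrambled and s47 replicate 2) showed none. No label links the numbers, so the block was kept as an alternative.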

Other observations

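Reads on the strand opposite to RXRA numbered 2 to 13 per library, and those opposite to VDR 0 to 10, more in all than the 2 sense reads of VDR.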
